A study of Mus musculus with 18 samples.

Results

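The gene that encodes the transcription factor NRF2 (Nfe2l2), that of its inhibitor KEAP1 and 8 antioxidant genes known as NRF2 targets were examined in lung RNA of mice given a mixture of 4 polycyclic aromatic hydrocarbons (PAHs). The members were Nfe2l2, Keap1, Hmox1, Gclc, Gclm, Slc7a11, Txnrd1, Srxn1, Gsr and G6pdx, and each array probe whose RefSeq accession maps to one of them was taken. This gave 12 probes for the 10 genes, with 2 probes each for Hmox1 and Gsr, of 55681 probes and 20660 named genes on the array. The mice were male MutaTMMouse, a lacZ reporter strain on a BALB/C and DBA/2 background, about 12 weeks old. They received the 4PAH-Mix (benzo(a)pyrene, benz(a)anthracene, benzo(b)fluoranthene and chrysene) in olive oil, or olive oil only, by daily oral gavage for 28 days, and lungs were taken 72 h after the last dose. Doses are given in mg BaP equivalents/kg-bw/day. The vehicle group held 5 mice, the low dose (12.5) 4, the medium dose (25) 5 and the high dose (50) 4, and mice are named below by their numbers. On each array the Cy5-labelled lung RNA of 1 mouse was hybridized against Cy3-labelled Universal Mouse Reference RNA, a pool from mouse cell lines, so that each value is a log2 ratio of lung over reference and not an absolute level.

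In unstressed cells KEAP1 holds NRF2 in the cytoplasm and feeds it to an E3 ubiquitin ligase for degradation. Electrophiles and oxidants modify KEAP1, NRF2 then accumulates in the nucleus, pairs with a small MAF protein and binds antioxidant response elements in its target genes. PAHs reach this pathway through the quinones and other reactive products of their metabolism, and also through the aryl hydrocarbon receptor (AHR), which induces the cytochrome P450 enzymes that make those products. NRF2 itself is regulated mostly at the protein level, which these arrays do not measure.

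The stretches below are those in which the core of the antioxidant response element, TGACNNNGC, or its reverse complement, GCNNNGTCA, was found in the promoters of members. They are shown because they are the letters through which NRF2 is known to act on its targets. Promoter windows of 300 bases, from 250 bases before to 50 after a gene's start, came from a RefSeq table of build GRCm38.p6. It held 9 windows for 7 of the members, 3 of them for Txnrd1, and Hmox1, Gclc and Gsr were not in it. Each line gives the core in capitals with 10 bases to either side, 5′ to 3′ on the gene's strand.
Nfe2l2, chr2:75704885-75704913, minus strand, core 232 bases before the start: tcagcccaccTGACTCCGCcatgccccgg
Gclm, chr3:122245413-122245441, plus strand, core 126 bases before the start: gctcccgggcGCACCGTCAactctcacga
Txnrd1, chr10:82859104-82859132, plus strand, core 84 bases before the start: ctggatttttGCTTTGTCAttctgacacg
G6pdx, chrX:74428919-74428947, minus strand, core 49 bases before the start: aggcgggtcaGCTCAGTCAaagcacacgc
Srxn1, chr2:152105542-152105570, plus strand, core 28 bases after the start: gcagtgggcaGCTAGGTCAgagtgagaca

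These 5 members had the core once in 1 window, and 12.4% of the 32851 windows in the table hold it on either strand. The Keap1 and Slc7a11 windows do not hold these letters. Keap1 is the member with the smallest p at the high dose, so its window, chr9:21239283-21239582 on the minus strand, is given whole, with the core of the AHR response element, GCGTG or its reverse complement CACGC, in capitals at 2 places.
Keap1: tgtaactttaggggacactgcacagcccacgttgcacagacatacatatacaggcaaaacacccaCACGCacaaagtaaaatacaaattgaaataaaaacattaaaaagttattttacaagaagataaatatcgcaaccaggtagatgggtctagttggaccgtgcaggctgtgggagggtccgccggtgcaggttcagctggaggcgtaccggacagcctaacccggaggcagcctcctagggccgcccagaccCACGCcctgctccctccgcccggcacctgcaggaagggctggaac
The AHR core was found in 7 of the 9 windows of members, which belong to 5 of the 7 members, and in 32.4% of the windows of the table. A match of so few letters is a description of the sequence and not a measured binding site.

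Of the 10 members, 9 were well above background in the lung channel on all 18 arrays, and none was saturated. Slc7a11, the cystine transporter that feeds glutathione synthesis, was well above background in 1 of 5 vehicle, 1 of 4 low-dose, 2 of 5 medium-dose and 0 of 4 high-dose mice, so it has only a bound at the high dose and no fold change is given for it. The lung label held: the 6 epithelial markers examined lay between 4.79 and 7.66 log2 units above the reference pool in the vehicle mice. Against the same pool Gclc was high in vehicle lung (log2 ratio 2.00 ± 0.26, SD, n = 5) and Hmox1 was low (-2.85 ± 0.39, SD, n = 5). Hmox1 encodes the inducible haem oxygenase, and a low ratio here also depends on its level in the pooled cell lines. The share of probes well above background in the lung channel was 51.5% to 61.1% across the arrays, and the lowest correlation between any pair of arrays over all probes was 0.937.

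No member was called at any dose. A probe was called at a Benjamini-Hochberg adjusted p of 0.05 or less over all probes and a fold change of at least 1.5, in a limma fit of all 18 arrays. That rule called 0 of the 10 members at the low, medium and high dose, where it called 0.0898%, 0.726% and 1.2% of all probes. It also called 0 members between the high and low dose, where the share of all probes was 0.0449%, and 0 in the linear trend over dose, where it was 1.12%. With no fold limit the members at an adjusted p of 0.05 or less numbered 0 at the low dose (0.167% of all probes), 0 at the medium dose (3.54%), 1 at the high dose (4.18%), 0 between high and low dose (0.0611%) and 0 in the trend (3.9%). At an unadjusted p under 0.05 the members numbered 2 at the low dose (8.01% of all probes), 1 at the medium dose (15.3%), 2 at the high dose (15.7%), 0 between high and low dose (6.71%) and 2 in the trend (16.1%). Each of these members was lower after exposure, and they were Keap1 and G6pdx at the low dose, Keap1 at the medium dose, and Keap1 and Hmox1 at the high dose and in the trend.

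The 9 members well above background divided by sign rather than moving one way. At the high dose 4 had a higher mean than the vehicle mice and 5 a lower one, between -0.39 for Hmox1 and 0.22 for Gclm on the log2 scale, with a median of -0.07 beside 0.02 over all named genes. With each array only centred on its median, in place of loess normalization, 6 were higher and 3 lower, with a median of 0.16; it was 4 and 5 under the 12 other alternatives. The upper 95% limit of the change lay under a 1.5-fold rise for 9 of 9 at each of the 3 doses, and the highest of these limits, that of Gclm at the high dose, was 1.38-fold. Falls were bounded less tightly, since the lower limit passed a 1.5-fold fall for Hmox1 and Gclc at the high dose and reached 1.77-fold for Gclc. The lower limit also passed a 1.5-fold fall for Hmox1 and Gclc at the medium dose and for Gclc at the low dose. With median centring the bound on rises held for 2 of 9, as described below for Keap1.

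**Figure D1:**
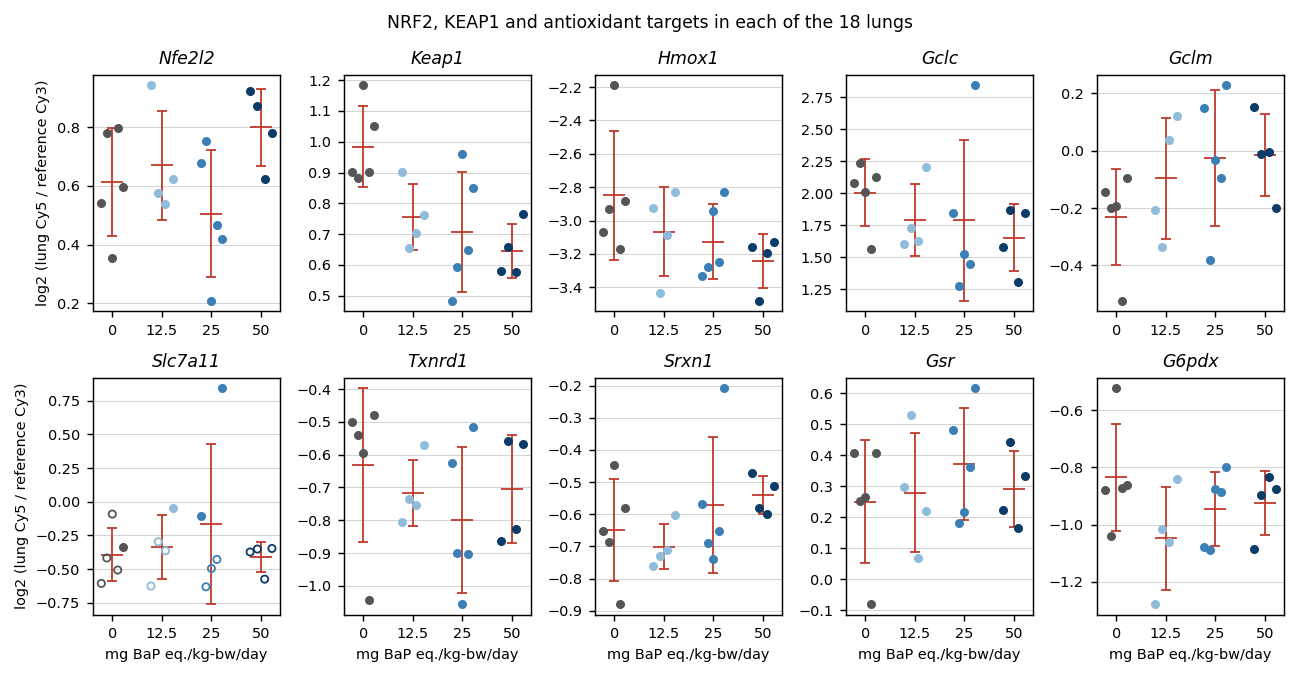
Log2 ratio of lung Cy5 over reference Cy3 for the brightest probe of each member, one panel a gene, against the dose in mg BaP equivalents/kg-bw/day; points are mice (open where the probe was not well above background), red bars the group mean and SD. The 4 high-dose mice lie below all 5 vehicle mice for Keap1 only, and medium-dose mouse 15 is the highest of 18 for Gclc, Gclm, Slc7a11, Srxn1 and Gsr.

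Nfe2l2, the gene of NRF2 itself, did not differ between the groups beyond the spread of the mice. Its log2 ratios in vehicle mice 1 to 5 were 0.54, 0.78, 0.35, 0.80 and 0.60. They were 0.94, 0.57, 0.54 and 0.62 in low-dose mice 6, 7, 9 and 10, and 0.68, 0.75, 0.21, 0.47 and 0.42 in medium-dose mice 11 to 15. In high-dose mice 16, 17, 18 and 20 they were 0.92, 0.87, 0.62 and 0.78. The groups overlapped, although 2 of the 4 high-dose mice lay above all vehicle mice and none lay below the vehicle mean. The log2 change at the high dose was 0.19 ± 0.12 (SE; 95% interval -0.05 to 0.43; adjusted p = 0.49 in limma), and it was 0.06 at the low and -0.11 at the medium dose, with no order in dose.

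Keap1, whose product holds NRF2 in check, was the one member below its vehicle level in 13 of 13 exposed mice when set against the vehicle mean. Its log2 ratios were 0.90, 0.88, 1.18, 0.90 and 1.05 in vehicle mice 1 to 5. They were 0.90, 0.65, 0.70 and 0.76 in low-dose mice 6, 7, 9 and 10 and 0.48, 0.59, 0.96, 0.65 and 0.85 in medium-dose mice 11 to 15. In high-dose mice 16, 17, 18 and 20 they were 0.58, 0.66, 0.58 and 0.76. The high-dose and vehicle mice did not overlap, which held for 1 of the 10 members and for 8.11% of all probes; at the low and the medium dose it held for 0 of 10 members against 2.81% and 4.36% of probes.

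The mean of Keap1 was lower than in vehicle mice at each dose. From low to high dose the log2 change came to -0.23 ± 0.10, -0.28 ± 0.09 and -0.34 ± 0.10 (SE), with adjusted p of 0.53, 0.099 and 0.046 in limma. The last is the only member value at or under 0.05 in the 3 comparisons with vehicle, and its fold, 0.790, was short of the 1.5-fold limit. By the two-sided exact permutation test the high dose gave p = 0.0079, the smallest that 4 against 5 mice allow, the medium dose p = 0.056 and the low dose p = 0.040. Low and high dose did not differ for Keap1 beyond their spread (-0.11, 95% interval -0.32 to 0.10). The slope over dose came to -0.32 at the high dose, with an adjusted p of 0.062.

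The dependence of the Keap1 difference on slide, mouse and processing was examined. Within each of the 3 slides, all of which held mice of the 4 groups, it was -0.27, -0.47 and -0.29 at the high dose. These compared 2 high-dose with 2 vehicle mice, 1 with 2 and 1 with 1. With the slide as a block it was -0.33 (adjusted p = 0.035). Left out one at a time, the 18 mice gave -0.38 to -0.29 and an adjusted p between 0.028 and 0.14. That p passed 0.05 without any one of vehicle mice 1 to 5, low-dose mice 7, 9 and 10, medium-dose mice 12 and 14, or high-dose mice 16, 17 and 18. Of 13 alternative ways of processing, 9 kept an adjusted p of 0.05 or less and 4 did not. These were scale normalization between arrays (-0.30, adjusted p = 0.064), the authors' table (-0.31, adjusted p = 0.056), adjustment over the 3 doses together (adjusted p = 0.065), and median centring of the arrays without loess, where the change was -0.08 (adjusted p = 0.98). Under that centring the 1644 probes within 0.5 log2 units of Keap1's brightness had a median change of 0.24 at the high dose, against 0.00 with loess. Keap1 lay 0.32 below that median under centring and 0.34 below it under loess. Loess takes out the trend with brightness on each array, so these distances were bound to be close. They are not a separate check of the Keap1 difference.

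**Figure D2:**
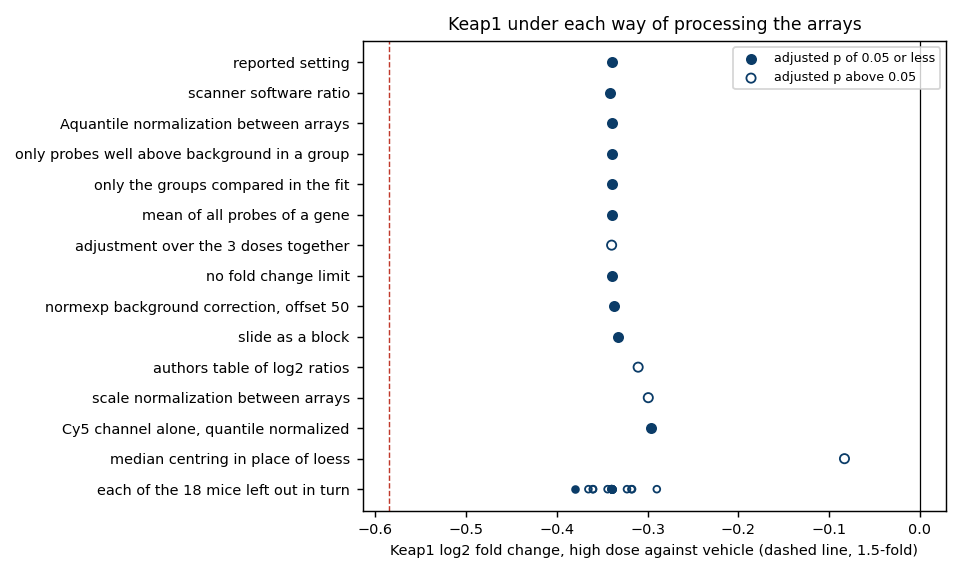
Keap1 log2 fold change at the high dose against vehicle (x axis) under the reported setting, each alternative way of processing the arrays and each mouse left out in turn (y axis); filled points have an adjusted p of 0.05 or less and the dashed line marks 1.5-fold. The values sit between -0.38 and -0.29 in all settings but median centring, at -0.08.

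Hmox1 was the member with the lowest high-dose change. Its log2 ratios were -3.07, -2.93, -2.19, -3.17 and -2.88 in vehicle mice 1 to 5, and -3.16, -3.48, -3.19 and -3.13 in high-dose mice 16, 17, 18 and 20. In low-dose mice 6, 7, 9 and 10 they were -2.92, -3.43, -3.09 and -2.83, and in medium-dose mice 11 to 15 -3.33, -3.28, -2.94, -3.25 and -2.83. Vehicle mouse 3 stood above all 17 others, and the high-dose mice overlapped the rest of the vehicle mice. The log2 change at the high dose was -0.39 ± 0.16 (SE, unadjusted p = 0.025, adjusted p = 0.22 in limma; two-sided exact permutation p = 0.063). Without vehicle mouse 3 it was -0.23, with median centring -0.14 (adjusted p = 0.96) and with scale normalization -0.57 (adjusted p = 0.11). The second Hmox1 probe, dimmer but above background on all arrays, gave -0.49 ± 0.24 (SE, adjusted p = 0.34), and the means at all 3 doses were below the vehicle mean on both probes. On the second probe vehicle mouse 3 was at -0.27 and the other vehicle mice between -2.02 and -1.71. The high-dose mice lay between -2.21 and -1.86 there, so mouse 3 set much of that change. Its value without mouse 3 was not computed.

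The 2 subunits of glutamate-cysteine ligase, which makes the first step of glutathione synthesis, had opposite signs. For Gclc, the catalytic subunit, the log2 ratios were 2.08, 2.24, 2.01, 1.56 and 2.13 in vehicle mice 1 to 5 and 1.58, 1.87, 1.31 and 1.85 in high-dose mice 16, 17, 18 and 20. In low-dose mice 6, 7, 9 and 10 they were 1.60, 1.73, 1.63 and 2.21, and in medium-dose mice 11 to 15 they were 1.85, 1.28, 1.53, 1.45 and 2.84. The groups overlapped, and mouse 15 alone spread the medium group to an SD of 0.63. The high-dose change of Gclc was -0.35 ± 0.23 (SE, adjusted p = 0.51), or -0.10 with median centring, and the medium-dose change was -0.22 with mouse 15 and -0.48 (adjusted p = 0.10) without it.

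For Gclm, the modifier subunit, the log2 ratios were -0.14, -0.20, -0.19, -0.52 and -0.10 in vehicle mice 1 to 5 and 0.15, -0.01, -0.01 and -0.20 in high-dose mice 16, 17, 18 and 20. They were -0.21, -0.34, 0.04 and 0.12 in the low-dose mice 6, 7, 9 and 10, and 0.15, -0.38, -0.03, -0.10 and 0.23 in medium-dose mice 11 to 15. Of the high-dose mice 3 of 4, and of the medium-dose mice 4 of 5, lay above all vehicle mice. From low to high dose the log2 change came to 0.14, 0.21 and 0.22 ± 0.12 (SE), with an adjusted p of 0.42 at the high dose and a two-sided exact permutation p of 0.063. Gclm was the member with the largest mean rise at the high dose, and its 95% interval of -0.04 to 0.47 includes no change.

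The members that recycle thiols and supply NADPH stayed within the spread of the mice. Thioredoxin reductase (Txnrd1) ranged from -1.04 to -0.48 in vehicle and from -0.86 to -0.56 in high-dose mice, a log2 change of -0.07 ± 0.12 (SE). Sulfiredoxin (Srxn1), which repairs overoxidized peroxiredoxins, ranged from -0.88 to -0.45 in vehicle and from -0.60 to -0.47 in high-dose mice, a change of 0.11 ± 0.10 (SE). The high-dose values of both lay inside the vehicle range. Glutathione reductase (Gsr) changed by 0.04 ± 0.11 (SE) on its brighter probe and by 0.07 ± 0.12 on the second. Glucose-6-phosphate dehydrogenase (G6pdx), which makes NADPH for both reductases, was at -0.21 ± 0.10 (SE) at the low dose, with an unadjusted p of 0.0497 and an adjusted p of 0.62, and at -0.11 and -0.09 at the medium and high dose. Slc7a11 ran from -0.61 to -0.09 in vehicle and from -0.57 to -0.35 in high-dose mice, near background in both.

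**Figure D3:**
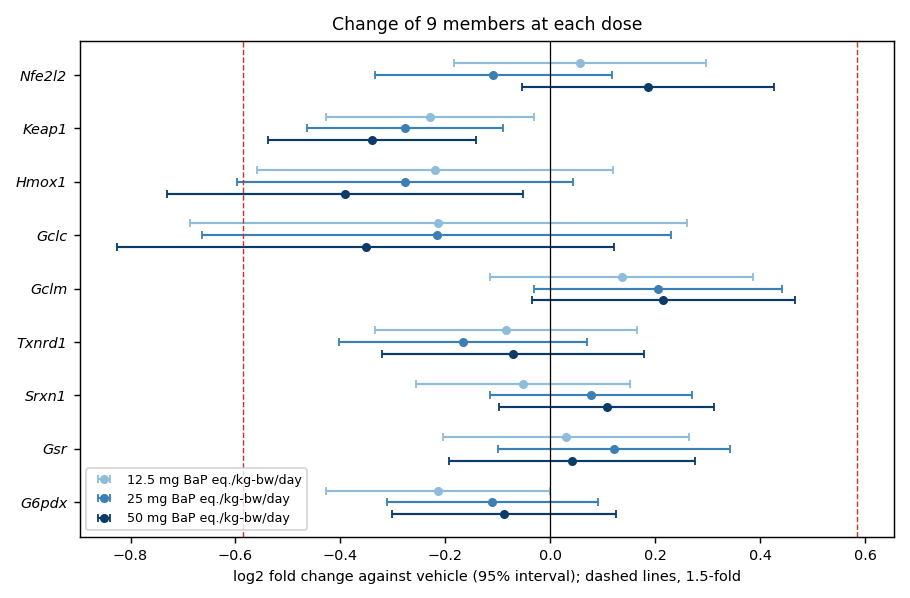
Log2 fold change against vehicle (x axis, points, with 95% intervals from the limma fit) of the 9 members above background on all arrays at the low, medium and high dose (light to dark blue); dashed lines mark 1.5-fold either way. Every upper limit stays left of the 1.5-fold rise, and the 3 Keap1 intervals lie below 0.

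Within a dose group the mice differed from each other, and the thiol genes did so together. In each mouse the deviation of a member from its group mean was taken, which leaves out the dose, and the 36 pairs of the 9 members above background were compared over the 18 mice. Gclc and Txnrd1 deviated together (Pearson r = 0.81, Spearman rho = 0.85, permutation p = 0.00029 for both within groups, 0.010 adjusted over the 36 pairs). So did Gclc and Srxn1 (r = 0.82, rho = 0.74), Txnrd1 and Gsr (r = 0.77, rho = 0.75), Txnrd1 and Srxn1 (r = 0.72, rho = 0.69) and Gclc and Gsr (r = 0.65, rho = 0.65). Their permutation p lay between 0.0019 and 0.0050 for r and between 0.0014 and 0.0078 for rho, and at most 0.035 adjusted over the pairs. Gclc, Txnrd1, Srxn1 and Gsr thus formed 5 of the 7 pairs that passed on both measures. The share of such pairs among all genes was not computed, so these r do not show a trait particular to the members.

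The other 2 pairs lay outside that group. Keap1 and Hmox1 deviated together (r = 0.74, rho = 0.73, permutation p = 0.0014 and 0.0027, 0.016 and 0.020 adjusted), and Nfe2l2 and G6pdx in opposite directions (r = -0.79, rho = -0.78, permutation p = 0.00090 and 0.0012, 0.016 and 0.013 adjusted). Without the 2 mice farthest from the median of the first gene, r of the 7 pairs was 0.86 for Gclc and Txnrd1, 0.63 for Gclc and Srxn1, 0.61 for Txnrd1 and Gsr, 0.52 for Txnrd1 and Srxn1, 0.55 for Gclc and Gsr, 0.67 for Keap1 and Hmox1 and -0.72 for Nfe2l2 and G6pdx. With the slide removed as well as the group, the 7 were between 0.53 and 0.73, or -0.67 for the negative one. Pairs outside the 7 were of like size there, such as Hmox1 and Srxn1 (0.65), Gclc and Gclm (0.64) and Nfe2l2 and Gsr (-0.64). The permutations were made within dose groups and took no account of the slide. The values of a pair come from the same array and the same piece of tissue, and slides held too few mice of a group for a value within each.

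**Figure D4:**
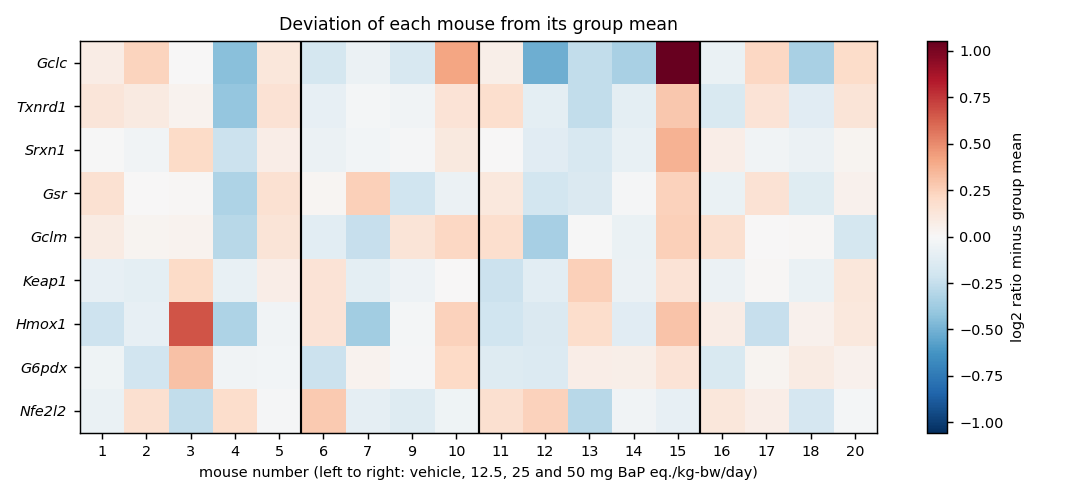
Log2 ratio of each member minus the mean of its dose group (colour, red above and blue below) for the 9 members above background on all arrays (rows) and the 18 mice (columns, black lines between dose groups). Gclc, Txnrd1, Srxn1, Gsr and Gclm are blue together in vehicle mouse 4 and red together in medium-dose mouse 15.

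A pair of mice was read more closely. Medium-dose mouse 15 was the highest of the 18 mice for 5 of the 10 members, and Gclc in it was 1.32 log2 units above the mean of the other 4 medium-dose mice. It was the only medium-dose mouse on its slide, so its distance from the other 4, for any gene, cannot be told apart from the slide. Against vehicle mouse 5 on the same slide Gclc in mouse 15 was higher by 0.72. Low-dose mouse 10, the only mouse of its group on that slide, was the highest of its group for 7 of the 10 members. Vehicle mouse 4 was the lowest of its group for 6 of the 10 members. This count does not set it apart, since high-dose mouse 18 was also the lowest of its group for 6, and low-dose mouse 6 and medium-dose mouse 12 for 5 each. Since RNA was extracted from random sections of each lung, the genes that set mouse 15 apart were read as well, and these were named after their values were seen. Cfd (2.86 log2 units above the other medium-dose mice), Muc5b (2.73), Tff2 (2.26), the heat shock gene Hspe1 (2.03) and Scgb3a1 (1.99) led 13461 genes above background. Muc5b and Scgb3a1 are known from secretory cells of the airways. The 6 epithelial markers ran the other way there in 5 of 6, between -0.84 and 0.02. The part of these differences in the members' values was not tested, and no member was called at any dose with mouse 15 or with mouse 4 left out.

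Genes of like pattern over the 18 mice were read for Hmox1, Gclc and Keap1, the 3 members with the largest change at the high dose. Of 13443 other named genes above background on all arrays, Nupr1 (r = 0.94), Abhd2 (0.90) and Sfn (0.88) were most like Gclc, and Txnrd1 came at the 99.6th percentile (r = 0.79). Srxn1 came at the 96.5th percentile for Gclc (r = 0.62) and Gsr at the 93.6th (r = 0.55), so many other genes were closer to Gclc than these members. Myadm (0.93), Hmga1 (0.90) and Slc45a4 (0.89) were most like Keap1, and Apol9b, Oasl1 and Gm10653 most like Hmox1 (0.86, 0.86 and 0.85). Set against the same genes, Keap1 came at the 99.9th percentile for Hmox1 (r = 0.80) and Hmox1 at the 99.3rd for Keap1. These r, over 18 mice of all doses, are descriptions and carry no test. Vehicle mouse 3 was the highest of the 18 for Hmox1 (-2.19) and Keap1 (1.18), and medium-dose mouse 15 for Gclc (2.84). How far these r rest on a single mouse was not tested. Apol9b and Oasl1 are known as interferon-induced genes.

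Beyond the members, 59 of 61 other genes of the pathway were on the array under names that matched, in 7 lists. At the high dose 1 was called, Cyp1b1, where 1.2% of all probes were called, and the median change of the 59 was -0.01. Unadjusted p in limma was under 0.05 for 12 of the 59, of which 9 were higher and 3 lower, where 15.7% of all probes had such a p. Cyp1b1, a direct AHR target, was higher by 0.85 ± 0.16, 1.15 ± 0.15 and 1.58 ± 0.16 (SE) from low to high dose, with adjusted p of 0.030, 0.00015 and 3.6e-06 in limma. The mean of Cyp1b1 followed the order of the doses. Nqo1 and Cyp1a1 are given for their known roles. Nqo1, the quinone reductase gene induced through both AHR and NRF2, was at 0.23, 0.48 and 0.22 ± 0.17 (SE), with adjusted p of 0.80, 0.11 and 0.62. Cyp1a1 was at 1.07 ± 0.33 (SE, adjusted p = 0.077) at the high dose, above background on 15 of 18 arrays. Among the alternatives run it was called, at 1.51, only when high-dose mouse 20 was left out or, at 1.22, when arrays were scaled to each other. Aldh3a1 was the lowest of these shared targets (-0.28).

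**Figure D5:**
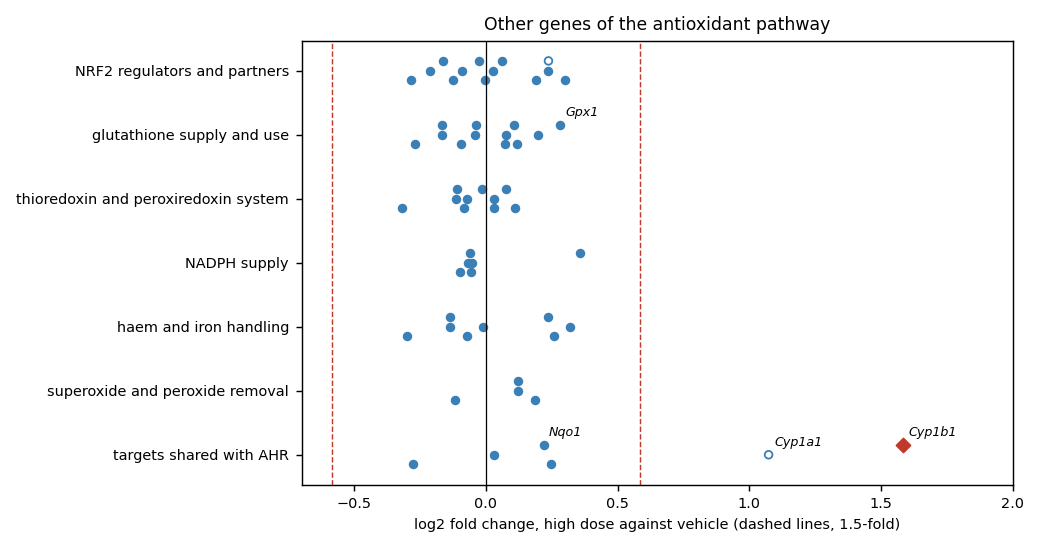
Log2 fold change at the high dose against vehicle (x axis) of the 59 other pathway genes, one row a list; open points were not above background on all arrays, the red diamond was called and dashed lines mark 1.5-fold. Cyp1b1, at 1.58, is the only gene called, and all but Cyp1b1 and Cyp1a1 lie between the dashed lines.

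Of the 13 regulators and partners of NRF2, 0 were called at the high dose, with a median of -0.004 and a range from -0.28 for Mafg, a small MAF partner, to 0.30 for Bach2, a repressor that binds the same elements. At the medium dose 3 of them had an adjusted p of 0.05 or less without reaching 1.5-fold, where 3.54% of all probes had such a p at any fold. Bach2 was at 0.44 (adjusted p = 0.013), Mafg at -0.39 (0.031) and Sqstm1, whose product binds KEAP1 and which was named after its value was seen, at 0.44 (0.042). At the high dose Sqstm1 was at 0.23 (adjusted p = 0.40).

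Genes of glutathione supply and use had 0 of 12 called and a median of 0.02, from Ggt5 (-0.27) to Gpx1 (0.28 ± 0.08, SE). Gpx1, the main cytosolic glutathione peroxidase, had an adjusted p of 0.047 with a change under 1.5-fold. The thioredoxin and peroxiredoxin genes (0 of 10 called, median -0.04) ran from mitochondrial thioredoxin Txn2 (-0.32, adjusted p = 0.076) to Prdx2 (0.11). The genes of NADPH supply (0 of 6 called, median -0.06) ran from Taldo1 (-0.10) to Pgls (0.36, adjusted p = 0.11), and those of haem and iron handling (0 of 8 called, median -0.04) from Ftl1 (-0.30) to Fech (0.32). Superoxide and peroxide removal had 0 of 4 called and a median of 0.12, from Sod3 (-0.12) to Sod2 (0.19). At the medium dose Sod3, the extracellular superoxide dismutase, fell by 0.29 on the log2 scale (adjusted p = 0.026), short of 1.5-fold. Over the whole array the share of probes called was 1.2% at the high dose and 0.726% at the medium dose.

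Markers of cell types were read beside the lower Keap1 and Hmox1 values, since in whole lung fewer cells of a type and less RNA per cell cannot be told apart. All 6 epithelial markers were lower at the high dose, from -0.30 for Ager to -0.04 for Scgb1a1, with 0 called. Their mean log2 ratio ran from 6.16 to 6.69 over vehicle and from 5.95 to 6.54 over high-dose mice. Of 6 markers of other macrophages and monocytes 5 were lower (-0.28 to 0.04, 0 called), with means of 1.98 to 2.15 and 1.69 to 2.01. Of 10 alveolar macrophage markers 4 were lower, between -0.33 and 1.25, with 0 called. All 7 markers of cytotoxic lymphocytes were lower, with Gzma called at -2.25, and their means, 0.98 to 1.90 in vehicle and 0.66 to 1.06 in high-dose mice, overlapped. The part of these differences in the values of the members was not tested.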

How the data were processed

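Lung RNA of 18 mice was hybridized to 18 two-colour Agilent arrays (Cy5 lung, Cy3 reference RNA, no dye swap). The authors deposited each array's median signal intensities in both channels, neither background-subtracted nor normalized, a log10 ratio per spot made by Feature Extraction 11.0.1.1 per the file headers, and a table of log2 ratios. The deposited log2 table had column medians between -0.032 and -0.019 and a correlation of 0.995 to 0.998 with the values computed here, so it holds Cy5 over Cy3 after normalization within arrays.

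Log2 ratios of the median intensities were normalized by loess within arrays in R 4.3.3 with limma 3.58.1, with control spots and the 215 to 307 outlier spots per array at weight 0. Spots of a probe were averaged, and 86 probes lacked a value on some array. All 4 groups entered 1 limma fit, with Benjamini-Hochberg adjustment within a comparison (55681 probes). The limits of a call were 0.05 for the adjusted p and 1.5 for the fold change. Limma stands in for the MAANOVA test of the study, which was not run. The linear trend used dose as a number. Exact permutation tests (two-sided) served for single members, and pairs of members by 100000 permutations within groups.

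A RefSeq table of GRCm38.p6 named 27235 probes. Where a gene had several, the one brightest in Cy5 on average (log2) stood for it. Pathway genes were named where called or at either end of their list at the high dose; Nqo1, Cyp1a1 and Sqstm1 were named outside this rule. Nnt and Gsta1 of the pathway lists and Cd68, Ly6c2, Ly6g and Hbb-b1 of the marker lists were not analysed here. The members and lists were chosen with earlier results of these data known. Markers of endothelium, neutrophils and red blood cells had 1 of 4, 0 of 6 and 0 of 4 genes called at the high dose, the one being Pecam1 (0.74).

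Alternatives were normexp background correction (offset 50), median centring, scale and Aquantile normalization, the Cy5 channel alone, the scanner software's ratio, the authors' table, only probes above background in a group, the slide as a block, only the groups compared, no fold limit, adjustment over the 3 doses together, the mean of a gene's probes, and each mouse left out. Precision is limited by the number of arrays. All groups were on each of the 3 slides, but the array column on a slide followed the dose and cannot be told apart from it.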

Additional observations from a re-analysis of the deposited data

Results flagged for a closer look

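Of the 40 sets of values tested, a member in a dose group each, 3 held a mouse far from the others by Dixon's ratio, and chance alone marks about 1 set in 20. In vehicle mouse 4 Gclm was at a log2 ratio of -0.52, against -0.20 for the nearest vehicle mouse. In the same mouse Txnrd1 was at -1.04, against -0.60 for the nearest. In high-dose mouse 18 Slc7a11 was at -0.57, against -0.37 for the nearest high-dose mouse, and that probe was not well above background in any high-dose mouse. With vehicle mouse 4 left out the high-dose log2 change was 0.14 for Gclm and -0.17 for Txnrd1.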

How the results depend on the processing

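No member was called with any mouse left out, or under the alternatives run, which numbered 13 for each dose against vehicle, 12 for high against low dose and 11 for the trend, except Keap1 at the high dose with no fold limit (1 member). Of the 59 pathway genes 2 were called, in place of 1, with scale normalization (Cyp1a1 added), with no fold limit (Gpx1 added), and in 1 of 18 cases with a mouse left out, where the count ran from 1 to 2. The number of members whose 95% interval lay below a 1.5-fold rise at the high dose was 9 of 9 under 12 alternatives and with each mouse left out, and 2 with median centring. Median centring turned the sign of small log2 changes: Nfe2l2 at the medium dose (0.065), Txnrd1 at the low (0.043), medium (0.0077) and high dose (0.161), Srxn1 at the low dose (0.076), and G6pdx at the medium (0.073) and high dose (0.158). At the high dose the median change of all probes was 0.03 with it and that of probes about as bright as Keap1 was 0.24, both 0.00 with loess. The Cy5 channel alone turned Txnrd1 (0.00625) and Gsr (-0.013) at the high dose, and the slide as a block turned Gsr at the low dose (-0.0021). Over the 18 fits without 1 mouse, the change of Nfe2l2 at the low dose ran from -0.035 (without mouse 6; below 0 also without mouse 3) to 0.102, that of Srxn1 at the medium dose from -0.014 (without mouse 15) to 0.127, that of Gsr at the low dose from -0.054 (without mouse 7; below 0 also without mouse 4) to 0.099 and that of Gsr at the high dose from -0.041 (without mouse 4; below 0 also without mouse 17) to 0.083. The cause was not tested. The replicate numbers are mouse numbers that no groups share. No paired analysis was possible because the groups compared share no replicate number; mice were matched by slide in the fit with the slide as a block.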
